A study of Drosophila melanogaster with 8 samples.

Results

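Adult muscle of Drosophila melanogaster was compared between anw mutants and wildtype across all measured genes. The muscle libraries were taken by their labels, 2 mutant and 2 wildtype out of the 8 libraries of the series, and they share 1 deposited table of 23983 entries. Of these entries 10079 had at least 1 FPKM in at least 2 of the 4 libraries and were tested. FPKM scales the reads of a gene by its length and by a library total, which makes levels of different genes roughly comparable. A shift with gene length that differed between these libraries is described below.

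Both groups came from fly stocks and crosses reared at 25 °C on cornmeal food. The mutant is an anw knockout by the design text, and the wildtype carries no named allele. The sources used here do not give the allele, the strain background, the sex, the age, the muscle taken, or whether a library pooled several flies. They also do not say whether repeats are separate flies or cultures. The p-values therefore measure only how far these libraries spread, which may be technical.

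Adult fly muscle holds fibrillar flight muscle, which fills most of the thorax, and tubular muscle of legs, body wall and viscera. Contraction starts when calcium leaves the sarcoplasmic reticulum through the ryanodine receptor, acts on troponin on the thin filament, and is pumped back by SERCA. The series title places anw, called Angel Wing, among regulators of alternative splicing. Many muscle genes are spliced differently between muscle types, but FPKM per gene sums all splice forms and shows none of them.

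The 4 libraries held 21343286 and 19995132 reads assigned to genes in wildtype and 18580751 and 20655630 in mutant. All 12 flight muscle markers were measured in every library, the lowest of them at 23.1 to 29.3 FPKM. Act88F, the actin of flight muscle, had 2169 and 3910 FPKM in wildtype against 2445 and 1311 in mutant, and the flight muscle troponin C gene TpnC4 had 871 and 976 against 800 and 678. Other cell types were also present in unequal amounts. The summed FPKM of 26 measured testis genes was 311 and 97.9 in wildtype, 1037 in mutant replicate 1 and 5.64 in mutant replicate 2. The sum of 45 measured digestive enzyme genes of the gut was 26539 and 30219 in wildtype and 17651 and 14143 in mutant. In bulk tissue, fewer cells of a type and less RNA per cell cannot be told apart. No entry was named anw, so the targeted gene could not be used to check the genotype labels.

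The wildtype repeats were closer to each other than the mutant repeats, with a median absolute difference of 0.167 against 0.240 (log2 of FPKM + 1, over 9439 genes). Limma, fitted to log2(FPKM + 1) over all tested entries, called 0 of 10079 entries after Benjamini-Hochberg adjustment at 0.05, a share of 0%. At an unadjusted p under 0.05 there were 493 higher entries (4.89%) and 915 lower ones (9.08%), together 14% of all tested. The count of adjusted calls depends on the fit. A fit on 9439 genes that also used the spread between whole-fly libraries called 267 muscle genes, a share of 2.83%, of which 59 were higher (0.625%) and 208 lower (2.2%). Genes are therefore described by the value in each library and by whether both mutants lay on 1 side of both wildtypes. Both mutant libraries were above both wildtype libraries for 2383 entries (23.6%) and below both for 2550 (25.3%). By at least 1 log2 unit between the nearest libraries, 62 were higher (0.615%) and 95 lower (0.943%).

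Transposable elements left out, the widest gaps on the higher side belonged to w, CG7916, CG12057, ClC-a, CG31343 and Arc1, none of which is a sarcomere gene. The w gene (FBgn0003996, X, 2790599 to 2796466) encodes the White transporter, which carries eye pigment precursors. Its FPKM was 0.0398 and 0.0207 in wildtype and 23.3 and 22.1 in mutant, counted from 2 and 1 reads against 1110 and 951. The log2 difference was 4.53 ± 0.13 (SE, n = 2 per group, limma adjusted p = 0.0545). The gene was near 0 in wildtype muscle, and the mutant values lay close together. Its neighbour CG32795 did not share the difference, with 16.3 and 16.5 FPKM in wildtype against 14.52 and 16.2 in mutant. In the whole-fly libraries w stayed between 0.108 and 0.622 FPKM in both genotypes, and a difference of stock cannot be told apart from an effect of the genotype here.

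ClC-a (FBgn0051116, 3R, 11797244 to 11813207) encodes a chloride channel. It had 17.6 and 17.5 FPKM in wildtype against 120 and 214 in mutant, a log2 difference of 3.12 ± 0.31 (SE, limma adjusted p = 0.167). The wildtype values nearly coincided and the 2 mutants differed from each other, with replicate 2 the higher. The genes on both sides of it, Sbf and glo, had differences of 0.13 and 0.17.

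Arc1 (FBgn0033926, 2R, 14357927 to 14360297) encodes a protein derived from a retrotransposon Gag that packs RNA into capsids and passes it between motor neurons and muscle. Its FPKM was 53.1 and 80.4 in wildtype and 434 and 516 in mutant, with a log2 difference of 2.84 ± 0.25 (SE, limma adjusted p = 0.167). The pseudogene CR10102, which lies directly beside Arc1, went the same way, with 13.9 and 23.5 FPKM against 100 and 102. Its paralog Arc2, next in the row, had 6.74 and 7.39 FPKM in wildtype against 12.3 and 13.8 in mutant. All 3 thus had both mutants above both wildtypes, while the flanking genes CG8617 and Tfb1 overlapped between the groups. Reads of Arc1 and of its copies could have been split by the authors' counting, so the level of each is uncertain.

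**Figure D1:**
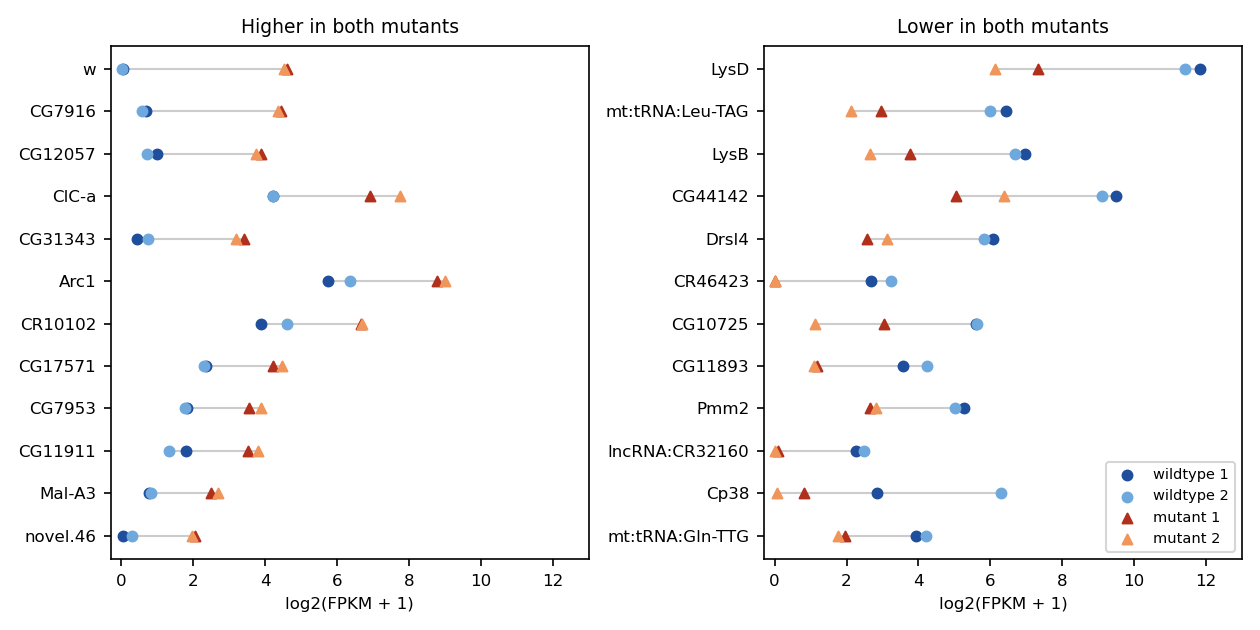
Level per muscle library as log2(FPKM + 1), for the 12 entries with the widest gap on each side, transposable elements left out, higher in both mutants on the left and lower on the right. Circles are wildtype and triangles mutant libraries, and w has wildtype circles near 0 with mutant triangles at 23.3 and 22.1 FPKM, while LysD has its triangles at 161 and 68.9 FPKM, below circles at 3624 and 2738.

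Several of the leading higher genes are uncharacterised and were much more abundant in whole flies than in muscle. CG7916 (FBgn0028534, 2L, 13846752 to 13847799) had 0.608 and 0.474 FPKM in wildtype muscle and 20.8 and 19.6 in mutant muscle, a log2 difference of 3.78 ± 0.13 (SE, limma adjusted p = 0.0558). Whole flies held 439 and 434 FPKM of it in wildtype and 371 and 295 in mutant. It belongs to a row of neighbouring genes on 2L that lay higher in both muscle mutants. In that row CG7953 had 2.51 and 2.40 FPKM against 10.8 and 13.7, and CG8997 had 14.48 and 18.5 against 23.9 and 27.3. CG12057 had 0.997 and 0.655 FPKM in wildtype muscle and 13.9 and 12.53 in mutant muscle. CG31343 had 0.343 and 0.680 against 9.72 and 8.15. The digestive enzyme gene Mal-A3, a maltase, had 0.704 and 0.759 against 4.62 and 5.49. The protease-like genes CG17571 and CG11911 had log2 differences of 2.02 and 2.10, and an unannotated transcript on an unplaced Y scaffold one of 1.83. The limma adjusted p was between 0.167 and 0.231 for these 6. Of the 34 genes that were higher by at least 1 log2 unit and also pass the filter in whole flies, 31 had more RNA in wildtype whole flies than in wildtype muscle. Over all 9439 genes in both tables this was so for 6788. The 34 were chosen for wildtype muscle values below the mutant ones, which enter this comparison, so the 31 is not independent of the choice. Against mutant muscle, 21 of the 34 had more RNA in wildtype whole flies, beside 6606 of all 9439. The tables of the tissues were also scaled separately. Whether RNA from other tissues took part in these differences was not tested.

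A smaller set on the higher side has known roles in muscle or in signalling. The gene salm encodes the Spalt major transcription factor, which directs fibres to the flight muscle fate. It had 3.23 and 2.60 FPKM in wildtype against 8.18 and 7.53 in mutant, a log2 difference of 1.18 ± 0.15 (SE, limma adjusted p = 0.195). Nuak, a kinase of the AMPK family, had 7.74 and 9.74 against 24.1 and 43.4. The gene sra, which encodes the calcineurin regulator Sarah, had 10.8 and 11.2 against 26.5 and 25.2. Chaperone genes went both ways, Hsp68, an inducible one, with 5.41 and 5.04 FPKM against 19.7 and 14.2, and Hsc70-3, which works in the endoplasmic reticulum, with 93.7 and 80.5 against 54.6 and 44.1. The metallothionein gene MtnE had 0.852 and 0.242 against 3.11 and 5.17. Urate oxidase, Uro, an enzyme of Malpighian tubules, had 5.75 and 13.7 against 33.4 and 44.4.

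Contractile genes had a small median difference as a list, and the longest of them leaned higher. Of 33 tested sarcomere genes 15 lay higher in both mutants and 5 lower, beside 23.6% and 25.3% of all entries, with a median log2 difference of 0.25 against 0.02 over all tested entries. Without wildtype replicate 1 the median was 0.08, and without mutant replicate 2 it was 0.15. It was 0.45 with quantile scaling and 0.17 with the length trend removed. With that trend removed 13 lay higher and 5 lower, beside 16.6% and 21.8% of all entries. The giant proteins were at the top. Msp300, which anchors nuclei and Z-discs, had 9.96 and 10.7 FPKM in wildtype against 17.9 and 29.2 in mutant. The titin-like gene sls had 23.1 and 25.7 against 36.5 and 64.9, and bt, the projectin gene, 72.2 and 76.8 against 103 and 195. Myosin heavy chain, Mhc, had 748 and 1129 against 1087 and 1379, and the groups overlapped. On the lower side stood the troponin C gene TpnC47D, with 19.8 and 17.7 against 11.5 and 9.90, and Mf, myofilin of the thick filament, with 1358 and 1227 against 816 and 1050. The flightin gene fln overlapped between the groups, at 23.9 and 29.4 against 29.3 and 23.7. The list also holds kcc, a chloride cotransporter gene that is not part of the sarcomere.

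Genes of calcium handling and excitation lay higher as a list. Both mutants were above both wildtypes in 13 of 17 tested genes and below in 0, beside 23.6% and 25.3% of all entries. The list median was 0.54, which was 0.25 without mutant replicate 2. RyR, the ryanodine receptor, had 24.2 and 26.9 FPKM in wildtype against 46.1 and 62.0 in mutant, a log2 difference of 1.04. The calcium channel subunit gene Ca-alpha1D had 9.85 and 11.2 against 17.03 and 26.7. The pump gene SERCA had 738 and 854 against 1072 and 1195, and the exchanger gene Calx 13.96 and 15.1 against 20.3 and 23.2. In all 4 of these genes mutant replicate 2 was the higher of the pair. Gene length moved with the result, since the tested members have a median length of 10153 bases against 1866 over all entries. With the length trend removed, 8 lay higher and 2 lower, beside 16.6% and 21.8% of all entries, and the median was 0.27. The list also holds scpr-A, a gene outside this pathway that had 19.2 FPKM in mutant replicate 1 and at most 2.20 in the others.

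Gene length ran through the whole comparison. Entries other than transposable elements were split by length into 4 groups of equal size. In the group of the longest entries 48.5% lay higher in both mutants and 10.0% lower, and in the group of the shortest 8.72% lay higher and 35.2% lower. The shift also separated repeats of 1 genotype. The median deviation of the longest group was -0.13 and -0.05 in the wildtype libraries, 0.01 in mutant replicate 1 and 0.15 in mutant replicate 2 (log2). That of the shortest group was 0.15 and 0.03 in wildtype and -0.06 and -0.17 in mutant. Mutant replicate 2 and wildtype replicate 1 were thus the extremes, and the part of the length trend in each list was described by removing it.

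**Figure D2:**
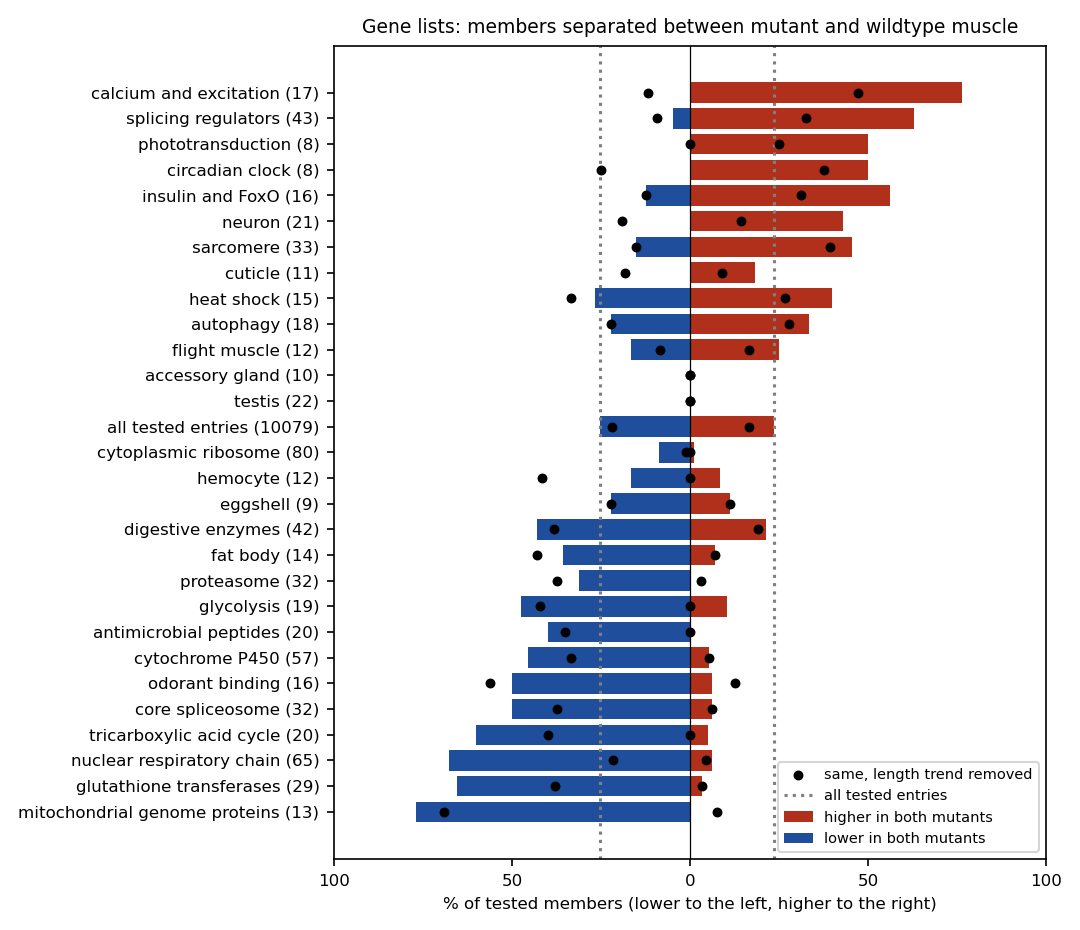
Share of tested members of each gene list that lie higher or lower in both mutant muscle libraries, in percent, as bars to the right and left, with the number of tested members in brackets. Black dots give the same shares with the length trend removed and dotted lines the shares over all tested entries, 23.6% and 25.3%. Calcium handling and splicing regulators lie mostly on the higher side, and the mitochondrial genome and the nuclear respiratory chain mostly on the lower side.

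The lower side was led by LysD, a digestive lysozyme gene of the gut, and other lysozyme genes beside it went the same way. LysD (FBgn0004427, 3L, 1210717 to 1211196) had 3624 and 2738 FPKM in wildtype against 161 and 68.9 in mutant, a log2 difference of -4.89 ± 0.47 (SE, limma adjusted p = 0.167). The wildtype mean was 27.7 times the mutant mean. LysB, beside it, had 123 and 103 against 12.53 and 5.29, and LysE, on its other side, 114 and 102 against 40.5 and 7.74. LysP, the next in the row, did not follow, with 407 and 303 against 374 and 511. In whole flies LysD went the other way, with 1.16 and 1.89 FPKM in wildtype against 165 and 116 in mutant. The lysozyme genes are near-identical copies, so the authors' counting could have moved reads between them.

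Digestive proteases went both ways. Jon99Cii and Jon99Ciii, chymotrypsin-like Jonah genes that are close copies, had 4541 and 4703 and 2135 and 2143 FPKM in wildtype. They had 1347 and 1621 and 598 and 755 in mutant, so that the groups were far apart. On 2R, 7 neighbouring tested genes from alphaTry to deltaTry, between 11344260 and 11356128, all lay lower in both mutants, with a median difference of -1.13. The trypsin genes gammaTry and deltaTry in it had 10.9 and 9.73 against 2.13 and 2.43, and 9.99 and 8.23 against 1.95 and 1.89. Reads of similar trypsin genes could have been split by the authors' counting, so the genes of the run may not be independent. The trypsin gene zetaTry, close by, was higher instead, with 0.395 and 0.0514 against 2.45 and 5.15. Of 42 tested digestive enzyme genes 9 lay higher (21.4%) and 18 lower (42.9%) in both mutants, beside 23.6% and 25.3% of all entries. The median of the digestive enzyme genes was -0.39, but -0.81 without mutant replicate 1 and 0.05 without mutant replicate 2.

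Some immune peptide genes were lower in both mutants. Drsl4, a drosomycin-like peptide gene (FBgn0052282, 3L, 3315620 to 3315942), had 65.8 and 55.4 FPKM in wildtype against 4.89 and 7.80 in mutant, a log2 difference of -3.09 ± 0.25 (SE, limma adjusted p = 0.167). The bomanin gene BomBc3, a target of Toll signalling, had 50.3 and 61.4 against 15.4 and 21.1, and BomBc2 297 and 294 against 117 and 160. Across 20 tested antimicrobial peptide genes 8 (40%) lay lower in both mutants, beside 25.3% of all entries, 0 lay higher and 12 overlapped. Their median was -0.70, but -0.02 without wildtype replicate 2 and close to 0 without mutant replicate 1. The attacin and diptericin genes, targets of the Imd pathway, overlapped between groups. DptB is an example, with 16.8 and 113 FPKM in wildtype against 24.4 and 93.7 in mutant, so that replicate 1 was the lower library in both genotypes.

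Other lower genes are of mixed function. Pmm2, a phosphomannomutase of protein glycosylation (FBgn0036300, 3L, 12534590 to 12535513), had 37.5 and 31.3 FPKM in wildtype against 5.24 and 6.05 in mutant. Its log2 difference was -2.41 ± 0.15 (SE, limma adjusted p = 0.167), and the values within each group were close. The uncharacterised gene CG44142 had 723 and 547 against 32.1 and 83.0, CG10725 47.3 and 48.7 against 7.16 and 1.19, and CG11893 10.8 and 17.8 against 1.26 and 1.12. CG7054 had 38.9 and 41.7 against 11.7 and 11.2, a log2 difference of -1.73 with a limma adjusted p of 0.167. A pair of noncoding entries were at or near 0 reads in mutants. CR46423 had 21 and 32 reads in wildtype and 0 and 0 in mutant, and lncRNA:CR32160 had 174 and 204 against 3 and 0. Pdf, the neuropeptide of the circadian clock neurons, had 26.0 and 27.6 FPKM in wildtype against 11.5 and 12.1 in mutant. The homeobox genes ara and caup, neighbours on 3L, had log2 differences of -1.35 and -1.07. The eggshell gene Cp38 met the rule for the lower side, but it had 6.22 FPKM in wildtype replicate 1 and 78.2 in wildtype replicate 2, against 0.752 and 0.0439 in mutant.

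A stretch of 3L held many of the lower genes. It was chosen after its values were seen and is described without a test. Between 12000001 and 13500000, 85 of 132 tested protein-coding genes lay lower in both mutants and 8 higher, a share of 64.4% lower against 25.7% among other protein-coding genes. It held 25 of the 79 protein-coding genes that were lower by at least 1 log2 unit. The median difference in the stretch was -0.59, against 0.01 elsewhere. The longest unbroken run there had 22 tested genes, from tral to Hip1 between 12515059 and 12773573, with a median of -1.12. With the length trend removed, 82 of the 132 lay lower in both mutants. In whole flies the 127 of these genes that were tested there had a median difference of 0.01.

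Genes of many functions lie in that stretch. Pmm2 is one, with the genes on both sides of it. Its neighbours Tsf2, a transferrin gene, and CG34242 had 10.5 and 10.4 FPKM against 2.93 and 2.56, and 23.2 and 25.4 against 7.51 and 7.30. The translation initiation factor gene eIF2beta had 106 and 88.7 FPKM in wildtype against 29.3 and 30.5 in mutant. Nplp2, a neuropeptide precursor gene, had 6652 and 4723 against 1602 and 1675. The adenosine kinase gene Adk2 had 106 and 79.3 against 25.2 and 24.6. The spliceosome genes SmD1 and Sf3a2 and the autophagy gene Atg12 lie there as well, so a count over their lists includes them. Within it 1 gene was higher by at least 1 log2 unit, the kinase gene sti, with 0.269 and 0.224 against 2.74 and 2.29. It directly precedes the run of 22. Genes that overlap each other, such as Pmm2 and CG4069, may share reads, because the treatment of strand is not given.

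**Figure D3:**
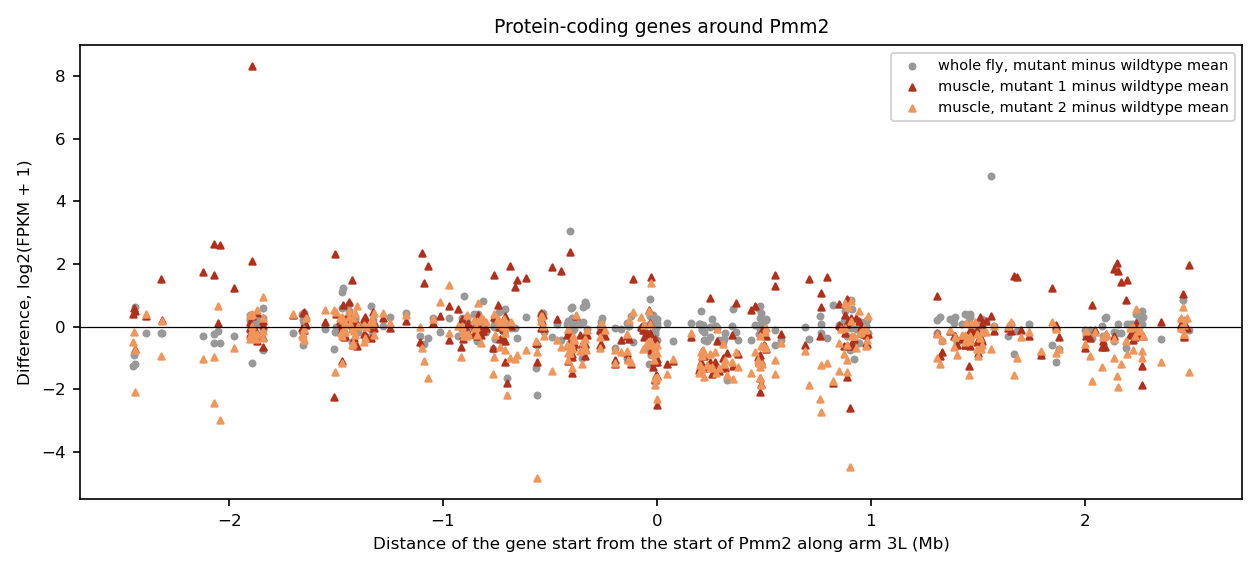
Difference on log2(FPKM + 1) of each protein-coding gene against its distance from the start of Pmm2 on 3L, in megabases. Triangles give each muscle mutant minus the wildtype mean and grey points the whole-fly difference, and the triangles around Pmm2 lie mostly below 0, with a median difference of -0.59 over the stretch, while the whole-fly median is 0.01.

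Most protein genes of the mitochondrial genome lay lower, and the large ribosomal RNA did not. Of 13 protein genes of the mitochondrial genome 10 lay lower in both mutants and 0 higher, beside 25.3% and 23.6% of all entries. The median of these genes was -0.41, which was -0.21 without mutant replicate 2 and -0.10 with quantile scaling. Cytochrome oxidase subunit 1, mt:CoI, had 17023 and 16461 FPKM in wildtype against 13469 and 10222 in mutant. The short gene mt:ATPase8 had 15.9 and 16.5 against 3.05 and 3.72, from 55 and 55 reads against 10 and 11. Mitochondrial transfer RNAs rested on few reads. Among them mt:tRNA:Leu-TAG had 118 and 84 reads in wildtype and 9 and 4 in mutant, mt:tRNA:Gln-TTG had 21 and 25 against 4 and 3, and mt:tRNA:Asp-GTC had 17 and 15 against 3 and 3. The large ribosomal RNA, mt:lrRNA, had 62834 and 54195 FPKM in wildtype, 68232 in mutant replicate 1 and 178085 in mutant replicate 2. It took 4304967 of the reads of mutant replicate 2 and between 1474629 and 1828652 in the other libraries. The high value thus belonged to 1 mutant library, and mutant replicate 1 was close to wildtype.

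Nuclear genes of energy metabolism had small differences. Of 65 tested respiratory chain genes 44 lay lower in both mutants and 4 higher, beside 25.3% and 23.6% of all entries. The median of these genes was -0.21, which quantile scaling turned to 0.04. With the length trend removed 14 lay lower (21.5%), close to the 21.8% of all entries. The complex I gene ND-SGDH had 778 and 789 FPKM against 430 and 476, and it lies in the 3L stretch. On the higher side blw, the alpha subunit of ATP synthase, had 2561 and 2641 against 3772 and 3689. In glycolysis 9 of 19 genes lay lower and 2 higher, and in the tricarboxylic acid cycle 12 of 20 lay lower and 1 higher. Quantile scaling reversed the sign of both medians. With the length trend removed 8 lay lower and 0 higher in each of these 2 lists, against 21.8% and 16.6% of all entries. Pgi, phosphoglucose isomerase, had 479 and 448 against 347 and 310, and SdhC, a subunit of succinate dehydrogenase, 1054 and 877 against 602 and 684.

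Splicing genes divided by their kind. Among splicing regulators, the SR proteins, hnRNP proteins and related factors, 27 of 43 lay higher in both mutants and 2 lower. Over all entries the shares were 23.6% and 25.3%. The median of the regulators was 0.24, which was 0.12 without mutant replicate 2. Doa, the kinase that phosphorylates SR proteins, had 23.2 and 27.0 FPKM in wildtype against 37.2 and 49.5 in mutant. The SR protein gene B52 had 26.0 and 25.1 against 29.6 and 47.0. With the length trend removed 14 of the regulators lay higher and 4 lower, beside 16.6% and 21.8% of all entries, and their median was 0.12. Among core spliceosome genes 16 of 32 lay lower and 2 higher, with a median of -0.21 (-0.14 without mutant replicate 2). With the trend removed 12 lay lower and 2 higher, and the median was -0.13. Tested regulators had a median length of 5540 bases and core genes 1421, against 1866 over all entries. SmD1, a core snRNP protein gene, had 10.9 and 7.94 FPKM against 2.91 and 2.70, and Sf3a2 17.8 and 18.3 against 6.47 and 5.85.

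The remaining lists are set beside the 23.6% of all entries that lay higher and the 25.3% that lay lower. With the length trend removed these shares of all entries were 16.6% and 21.8%. Among glutathione transferase genes 19 of 29 lay lower in both mutants and 1 higher, with a median of -0.43 that was -0.24 without wildtype replicate 2. GstD10 is an example, with 7.64 and 16.7 FPKM against 2.82 and 3.69. Among cytochrome P450 genes 26 of 57 lay lower and 3 higher, with Cyp4g1, the hydrocarbon synthase of oenocytes, at 2315 and 1489 against 654 and 883. In these 2 lists 11 and 19 lay lower with the length trend removed. Insulin and FoxO genes had 9 of 16 higher and 2 lower, with the kinase gene Akt at 9.12 and 10.6 against 11.8 and 15.6. Their median of 0.22 was 0.13 without mutant replicate 2 and 0.09 with the length trend removed, when 5 lay higher and 2 lower. Neuronal genes had 9 of 21 higher and 0 lower, with a median of 0.24 that was 0.04 without mutant replicate 2 and -0.03 with the length trend removed. Proteasome genes had 10 of 32 lower and 0 higher, with a median of -0.21 that was -0.01 without mutant replicate 2. Of the cytoplasmic ribosome genes 72 of 80 overlapped between the groups. The lists of heat shock and autophagy genes went both ways, with 6 higher and 4 lower in each, of 15 and 18 tested. Odorant binding protein genes had 8 of 16 lower and 1 higher. Phototransduction genes had 4 of 8 higher, led by the phospholipase C gene norpA with a log2 difference of 1.42. Circadian clock genes also had 4 of 8 higher, and in both lists 0 lay lower. With the length trend removed 2 phototransduction genes lay higher, and of the clock genes 3 lay higher and 2 lower. Without mutant replicate 2 the phototransduction median of 0.32 was 0.09 and the clock median of 0.25 was 0.14. Fat body genes had 5 of 14 lower and 1 higher, hemocyte genes 2 of 12 lower and 1 higher, cuticle genes 2 of 11 higher and 0 lower, and ovarian germline genes 1 of 7 lower and 0 higher. Of the 12 flight muscle markers 3 lay higher and 2 lower, and the 4 yolk protein genes overlapped.

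Chromosome 4 leaned higher. Of its 198 tested entries 116 lay higher in both mutants (58.6%) and 10 lower (5.05%), beside 23.6% and 25.3% of all tested entries. The median of the 198 was 0.36. For its 72 protein-coding genes the counts were 43 and 7 (59.7% and 9.72%), beside 22.8% and 26.2% of all protein-coding genes. With the length trend removed the counts were 29 and 9 (40.3% and 12.5%), beside 15.6% and 22.6%. The 72 genes have a median length of 4449.5 bases, against 1972 over all tested protein-coding genes. Their median difference in whole flies was -0.07. Another 119 of its entries are transposable element copies, which leaned higher over the whole genome. Of 318 tested copies 141 lay higher (44.3%) and 23 lower (7.23%), with a median of 0.39. The widest gaps belonged to adjacent copies on 3L. A copy of flea, between 23026952 and 23027092, had 2 and 0 reads in wildtype and 39 and 69 in mutant, and a copy of Cr1a, between 23027806 and 23029190, had 0 and 4 against 192 and 342. The lower side of the copies was led by INE-1 elements with few reads, 1 of them with 6 and 9 reads in wildtype and 0 and 0 in mutant. Reads of repeated sequences can be assigned to any of several copies, so the level of 1 copy is uncertain, and copies that differ between stocks cannot be told apart from a difference in level.

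Some of the largest differences belonged to 1 library and are set apart here. Among entries with at least 1 FPKM in any library, mutant replicate 1 lay at least 2 log2 units above the other 3 for 80 of 11539 (0.693%), against 9 (0.078%) and 8 (0.0693%) in the wildtype libraries and 14 in mutant replicate 2 (0.121%). Products of the male reproductive tract were among the 80. CG18628 had 0.140 and 1.02 FPKM in wildtype, 483 in mutant replicate 1 and 0.984 in mutant replicate 2. The seminal fluid gene Sfp87B had 0 FPKM in 3 libraries and 103 in mutant replicate 1, from 823 reads. The ejaculatory bulb protein genes Ebp and EbpII had 75.4 and 71.5 FPKM there and at most 0.0612 elsewhere. Mutant replicate 2 did not share these levels. Of the 14 entries that stood out in mutant replicate 2, 12 were transposable element copies and 0 were protein-coding genes. By less than 2 log2 units, mutant replicate 2 also stood above the other libraries for CG3909 and for the secreted protein gene Diedel. CG3909 had 213 FPKM there against 33.5 and 37.8 in wildtype and 61.0 in mutant replicate 1. Diedel had 11.8 against 2.70, 3.51 and 2.02.

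Testis genes followed another order over the 4 libraries. They were low in mutant replicate 2 and present in the other 3. Mst84Db, a sperm tail protein gene, had 45.2 and 12.3 FPKM in wildtype, 128 in mutant replicate 1 and 0.660 in mutant replicate 2. The sperm leucyl aminopeptidase gene loopin-1 had 25.2 and 6.60, 89.5 and 0.0511. All 22 tested testis genes and all 10 tested accessory gland genes overlapped between the groups. The summed accessory gland level was 70.8 and 22.9 FPKM in wildtype, 274 in mutant replicate 1 and 5.23 in mutant replicate 2. Among tested entries mutant replicate 2 lay at least 2 log2 units below the other 3 for 53 (0.526%), and mutant replicate 1 above for 47 (0.466%). Below the others, wildtype replicate 1 had 4 (0.0397%), and wildtype replicate 2 and mutant replicate 1 had 1 each (0.00992%). Above the others, the wildtype libraries had 8 (0.0794%) and 6 (0.0595%), and mutant replicate 2 had 2 (0.0198%). CG9029 had 31.4 and 23.5 FPKM in wildtype, 114.7 in mutant replicate 1 and 0.488 in mutant replicate 2, and CG14125 had 534, 660, 271 and 19.6.

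Female genes marked single libraries too. The eggshell sum was 902 FPKM in wildtype replicate 1, 177 in wildtype replicate 2 and 8.83 and 77.7 in mutant. Within it, the vitelline membrane genes set wildtype replicate 1 apart, with Vm26Aa at 319 against 4.31, 1.39 and 22.6, and the chorion genes Cp36 and Cp38 set wildtype replicate 2 apart. The yolk protein gene Yp1 had 4878 and 2614 FPKM in wildtype against 1611 and 3453 in mutant. The noncoding RNA lncRNA:roX1, which takes part in dosage compensation in males, had 15.6 and 25.1 against 23.1 and 17.4. Its partner lncRNA:roX2 was low, with 1.57 and 1.81 in wildtype against 3.03 and 2.88 in mutant, both mutants being above both wildtypes. Yolk and roX RNA was thus present in every library, and the levels of Yp1 and roX1 overlapped between the genotypes. The part of these tissues in the other differences was not tested.

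**Figure D4:**
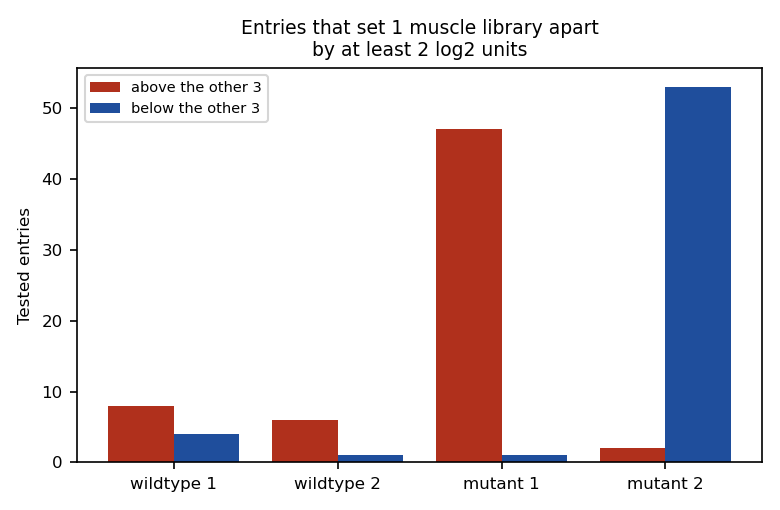
Number of tested entries that lie at least 2 log2 units above or below the other 3 muscle libraries, for each library. Mutant replicate 1 has 47 above and mutant replicate 2 has 53 below, and the other bars hold between 1 and 8 entries.

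**Figure D5:**
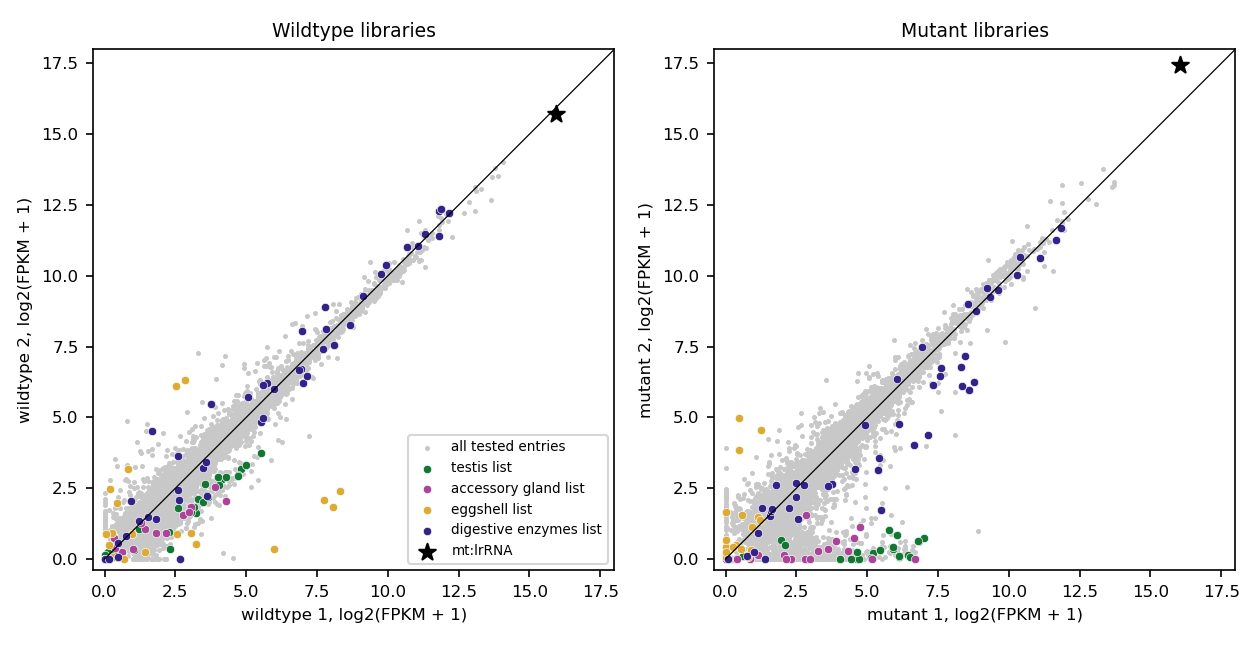
Level in replicate 2 against replicate 1, as log2(FPKM + 1), for wildtype on the left and mutant on the right, with tested entries in grey, 4 marker lists in colour and mt:lrRNA as a star. Testis and accessory gland genes lie far under the diagonal in the mutants, with testis sums of 1037 and 5.64 FPKM, and the star lies above it.

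Whether the muscle differences departed from those in whole flies was tested by an interaction term in a limma fit of all 8 libraries. The whole-fly table was scaled separately, so each genotype difference was formed within its own table. That table also uses other gene identifiers, so reads of copied genes could have been assigned differently in it. The term was called for 552 of 9439 genes (5.85%), with the muscle difference above the whole-fly difference in 151 (1.6%) and below it in 401 (4.25%). The genes with the widest gaps in muscle were chosen by a difference that enters this term, so how many of them were called is not a result. Among the 34 genes higher by at least 1 log2 unit in muscle, the whole-fly mutants were higher in 7 and lower in 18, and among the 80 lower ones they were higher in 28 and lower in 31. Over all 9439 genes 36.3% were higher and 29.6% lower in both whole-fly mutants. Arc1 is an example, higher in mutant muscle and at 132 and 132 FPKM in wildtype against 61.9 and 64.3 in mutant whole flies. CG17571 had 312 and 325 against 78.3 and 74.6 in whole flies. ClC-a was higher in both tissues, with 11.1 and 11.6 against 19.7 and 22.8 in whole flies. Nplp2 was lower in mutant muscle and had 1198 and 1071 against 1806 and 1824 in whole flies. With the length trend removed 234 genes were called, and with the repeat number as a block 4. Without single libraries the count ran from 151, without wildtype replicate 1, to 1723, without mutant replicate 2.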

How the data were processed

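RNA was measured in 4 adult muscle libraries, 2 wildtype and 2 mutant, and 4 whole-fly libraries were used for the comparison between tissues. The authors deposited FPKM values per gene and library in 1 table per tissue. Which aligner, counter, annotation and strand setting they used is not given in the sources used here. Per the submitters' processing notes the build is mm10 of the mouse, but identifiers are from FlyBase and 23812 of 23851 entries shared with the reference annotation have its coordinates of fly release 6, which the text gives 1-based. Per the labels' protocols, each mRNA library was made from 1.3 µg of total RNA. The whole-fly columns name no tissue and were assigned because the other table holds the muscle samples.

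FPKM times length gave whole reads, within 0.1 reads, for 100% of values. Between 18580751 and 21343286 reads per muscle library were recovered, and the deposited values carry a further factor of 0.884 to 1.09 per library. Symbols matched for 23365 of 23983 muscle entries. Another 5 had names turned into dates.

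Entries with at least 1 FPKM in at least 2 of 4 libraries were tested with limma 3.58.1 in R 4.3.3 (trend fit on log2(FPKM + 1), Benjamini-Hochberg). Differences on this scale understate changes of low genes. The fit was tested on simulated data. The difference between tissues is an interaction term over 8 libraries and 9439 genes, each genotype difference being formed within its table. Alternatives were a pseudocount of 0.1, a minimum FPKM of 5, no filter, quantile and median scaling, protein-coding entries only, removal of a length trend (loess, span 0.5), leaving out each library, a replicate block, a spread shared between tissues, and limma-voom on the recovered reads.

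Named genes were drawn from the 12 entries with the widest gap between groups in each direction, 6 per library that stand above the other 3, the 5 smallest p in each direction, all with transposable elements left out, 2 copies of these per direction, and 2 members per list whose groups do not overlap. The text describes part of these. Other genes, list members among them, were named after their values were seen. The lists (17 of pathways, 13 of markers) and members were chosen with earlier results of these data known. Same-numbered repeats of the 2 genotypes deviated together with a correlation of 0.389 across genes, over 2 pairs, which does not show that the numbers pair the samples.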

Additional observations from a re-analysis of the deposited data

Results flagged for a closer look

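For 17 of the 21 leading muscle genes that could be tested, the muscle difference departed from the whole-fly difference by the interaction term of limma at an adjusted p under 0.05. These genes were chosen for their muscle difference, which enters the term, so that this number is not independent of the choice. The values below are the muscle difference minus the whole-fly difference on log2(FPKM + 1). Among genes higher in both muscle mutants it was 4.18 for CG7916, 4.19 for the pseudogene CR10102, 4.06 for CG17571 and 3.89 for Arc1, the capsid-forming RNA carrier gene. For CG11911 it was 3.77, for CG31343 3.64, for CG7953 2.98 and for the maltase gene Mal-A3 2.57. ClC-a at 2.28 and CG12057 at 1.09 were higher in the mutants of both tissues. CG12057 had 166 and 152 FPKM in wildtype whole flies and 647 and 527 in mutant ones.

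Among genes lower in both muscle mutants it was -10.69 for the lysozyme gene LysD and -8.48 for LysB, for both of which the whole-fly mutants were the higher group. It was -5.66 for CR46423, which had 0 reads in both muscle mutants and 6.05 and 6.62 FPKM in the whole-fly mutants. For mt:tRNA:Gln-TTG it was -3.96, resting on few reads. It was -3.48 for CG44142, -2.54 for Pmm2 and -2.21 for CG11893. With the repeat number as a block 4 of all 9439 genes were called. The lysozyme genes are near-identical copies, and the tables of the tissues use different gene identifiers. Reads of such copies could therefore have been assigned differently in each table.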

How the results depend on the processing

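With 2 libraries per group, leaving out 1 decides much. Limma called 0 muscle genes as reported, and 2 with a minimum FPKM of 5, with quantile scaling and with protein-coding entries only, which were w and CG7916 each time. A spread shared between tissues called 267, and leaving out single libraries gave 0 to 13, the 13 without mutant replicate 1. The other settings, limma-voom and the replicate block among them, called 0. The count of entries higher by at least 1 log2 unit, 62, was 107 with a pseudocount of 0.1, 26 with a minimum FPKM of 5, 32 with protein-coding entries, 34 among genes of both tables, 117 with limma-voom, and 105 to 735 when 1 library was left out, the 735 without mutant replicate 2. The lower count, 95, was 168 to 430 without 1 library, the 430 without mutant replicate 1. These counts grow when a library is left out because fewer libraries have to be separated. The interaction count, 552, was 234 with the length trend removed, 4 with the replicate block, and 151 to 1723 without 1 library. The cause of the loss under the block was not tested. No named gene was under an adjusted p of 0.05 in the limma fit as reported, so none could lose a call under an alternative. Staying uncalled under an alternative therefore does not show that a difference was stable. Signs could turn when 1 library was left out. The eggshell median, for example, went from -2.35 to 0.44 without wildtype replicate 1. FPKM per gene cannot show splice forms, and entries under 1 FPKM rest on few reads.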
